A study of Mus musculus with 18 samples.

Results

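Megakaryocyte progenitors were selected from the lineage-negative, cKit-positive (LK) bone marrow cells by their RNA counts. A cell entered the gate with at least 4 unique molecular identifiers (UMIs, each standing for 1 captured RNA molecule) summed over Pf4, Gp1bb, Gp9 and Treml1, with at least 2 of these 4 genes detected, at least 1 UMI of Itga2b, at most 1 UMI of the erythroid factor Klf1 and fewer than 100 UMIs of the antibody light chain gene Igkc. Of 8436 LK cells, 260 met these conditions. Mouse by mouse, they were 17 of 1659 cells in mouse 1, 33 of 1688 in mouse 2, 48 of 1533 in mouse 3, 69 of 1919 in mouse 4, 61 of 956 in mouse 5 and 32 of 681 in mouse 6.

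The cells came from female C57BL/6 mice that were either young (8 weeks, mice 1, 3 and 5) or aged (72 weeks, mice 2, 4 and 6), with no genetic change or treatment named for either group. Bone marrow of spine, femora, tibiae and ilia was depleted of red cells and of lineage-positive cells, LK cells were sorted, and each mouse gave 1 droplet library with 3′ short reads. The same cDNA was also read with long reads, whose deposited counts are per gene and library and were not used for single cells. Because sorting required cKit protein and lacked lineage proteins, late megakaryocytes without cKit would fall outside the population measured.

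Megakaryocytes are the large marrow cells that shed platelets. Their progenitors arise from stem cells and from precursors shared with the erythroid lineage, and they switch on adhesion receptors and granule cargo under the transcription factors GATA1, FLI1, RUNX1 and NFE2. The platelet receptors that bind von Willebrand factor (the Gp1b complex with Gp9 and Gp5) and fibrinogen (the integrin of Itga2b and Itgb3) are made at this stage, together with chemokines such as Pf4 that are stored in alpha granules.

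Promoter sequences are shown first because the genes that mark these cells are known targets of GATA, ETS (FLI1) and RUNX factors. They are RefSeq sequences of the build GRCm38.p6, read on the strand of the gene, and positions count from the RefSeq start of the transcript. Capitals mark a GATA motif (AGATAA or TGATAA) or an ETS motif (AGGAAG or CGGAAG), in either orientation, with 1 match marked in each window of 30 bases. The F2rl2 window also holds an ETS match, AGGAAG at -101, which is left in lower case. F2rl2, which encodes a co-receptor for thrombin, has AGATAA at -95 (chr13:95696813-95696842, plus strand). Gp5 has TTATCT at -77 (chr16:30310841-30310870, minus strand) and Clec1b, the receptor for podoplanin, has TGATAA at -189 (chr6:129397096-129397125, plus strand). The ETS windows are those of Itga2b at -43 (chr11:102469909-102469938, minus strand), Pf4 at -9 (chr5:90772405-90772434, plus strand), Gp9 at -16 (chr6:87778040-87778069, plus strand) and Gp1bb at -90 (chr16:18622476-18622505, minus strand).
F2rl2: ggggtgaggaagAGATAAaagggatatggc
Gp5: ctggtaaggtctTTATCTtgaggatgcaag
Clec1b: ggataatataaaTGATAAgattagacatta
Itga2b: gctttcctggagAGGAAGgggaagcagtga
Pf4: tgtcattgcttctgcagagcaCTTCCTcat
Gp9: attttcaccatttcCTTCCTcctgtcaggc
Gp1bb: catttgtatctgCTTCCGagtgctctgaat

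A RefSeq promoter was found for 14 of the 19 megakaryocyte genes looked up, and it reached from 250 bases before the start to a short way past it. A GATA motif was found in 3 of these 14 promoters, an ETS motif in 9, a RUNX motif (TGTGGT) in 1, and GATA with ETS in 2. Among all 32851 RefSeq promoters of the same length, 16.6% held the GATA motif, 39.2% the ETS motif, 14.0% the RUNX motif and 5.49% both GATA and ETS. These matches are letters in a window and say nothing on binding. In the same build, Gencode M21 places the protein-coding gene Pf4 at chr5:90772435-90773383, Itga2b at chr11:102453297-102470122, Gp9 at chr6:87778072-87779768, Treml1 at chr17:48359916-48367176 and Gp1bb at chr16:18620317-18622403. The Itga2b window printed above lies inside these Gencode bounds of the gene, so it is upstream of the RefSeq start only. Gp1bb overlaps Sept5 on the same strand, Itga2b overlaps the small gene Gm23563 and Clec1b overlaps Clec9a, so counts of these genes are uncertain to the extent that reads could be assigned to the neighbour.

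The libraries differed in depth. Per mouse, all LK cells together held 3628043 to 17585424 UMIs, and the median cell held 4172 to 8498. The median gated cell held 7252, 6327, 6929.5, 8431, 9473 and 7703.5 UMIs in mice 1 to 6, and the summed gated cells held 132162 UMIs in mouse 1, the lowest, and 608209 in mouse 5, the highest. In the LK cells outside the gate, the summed granulocyte markers (8 genes) reached 14831 and 16554 counts per 1000000 UMIs (CPM) in mice 1 and 2 against 6539 to 10073 in the others, and the mast or basophil markers (7 genes) reached 6103 and 4807 CPM against 400 to 2496. B or plasma cell markers (6 genes) stood at 47913 CPM in mouse 2 and at 105 to 8304 in the others. Of 8394 distinct barcodes, 42 occurred in more than 1 library, and 1 gated cell carried such a barcode.

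The label was checked against markers. Of 16 listed megakaryocyte genes, 15 were in the table and each had at least 1 UMI in the gated cells. Their summed level was 7698 to 14956 CPM per mouse in the gate, against 148 to 345 in other LK cells, 88.8 to 183 in early erythroid cells and 222 to 737 in the stem cell gate. The early erythroid gate held 635 cells with at least 2 UMIs each of Klf1 and Car1, and the stem cell gate held 259 cells with at least 2 of Procr, Hlf and Mecom detected, 154 of them from mouse 4. Young mice 1, 3 and 5 gave only 13, 17 and 12 of the stem gate cells. Most of the sum in the gate is the rule itself, since it contains Pf4, Gp1bb, Gp9, Treml1 and Itga2b. The 10 measured genes outside the rule summed to 1391 to 1947 CPM in the gate and 69.4 to 159 in other LK cells. They summed to 47.5 to 114 CPM in early erythroid cells and 125 to 611 in the stem cell gate. Cavin2, which shapes caveolae and is the 1 marker of the label that the rule did not use, is described with the genes outside the rule.

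Markers of most other lineages were present below their level in other LK cells. The 12 erythroid markers summed to 190 to 337 CPM in the gated cells against 627 to 1410 in other LK cells, with Klf1 held down by the rule. The granulocyte markers summed to 806 to 1286 CPM against 6539 to 16554. The B or plasma cell markers summed to 2895 CPM in the gated cells of mouse 2 and to 65.1 to 386 in the other mice. Cd79a was at 0 in all of them, but other members of the list were detected. Cd79b was found in 24.6% of gated and 23.3% of other LK cells, Ighm in 26.5% and 45.5%, and Jchain in 13.5% and 20.4%. The macrophage or dendritic list (5 genes) stood at 1362 CPM in mouse 1 and at 3.29 to 41.1 elsewhere. The summed level of the 7 stem markers was higher in the gate, at 102 to 298 CPM against 62.2 to 122. Of the 4 tested singly, only Pdzk1ip1 was called higher, and 3 had a fitted change below 0. The 3 measured T or NK markers, at 375 to 675 against 414 to 857, overlapped the other LK cells. In the gate their sum was nearly all Nkg7, with Trbc2 in 1 cell and Cd3g in 0. Counting 3 or more UMIs of any other lineage list as mixed would mark 242 of the 260 cells, and leaving out of that count Nkg7 with the granulocyte and B or plasma cell lists would mark 91. No doublet caller was run, and 20 gated cells held more than 2.5 times the median UMIs of their mouse.

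The genes of the rule are given as a description only. Pf4, the platelet factor 4 chemokine, stood at 6999, 10526, 8853, 5188, 8645 and 11862 CPM in the gated cells of mice 1 to 6, and at 30.1 to 119 CPM in the other LK cells. It was highest in aged mice 2 and 6 and lowest in aged mouse 4. Itga2b, the alpha chain of the fibrinogen receptor, stood at 287, 729, 414, 425, 362 and 394 CPM, with mouse 2 above the rest. Gp1bb, a chain of the von Willebrand factor receptor, ranged from 257 to 405 CPM, Gp9 of the same complex from 145 to 287, and Treml1, a receptor stored in alpha granules, from 75.7 to 191. A gated cell held a median of 45 UMIs summed over the 4 genes, with 370 at most, and a median of 3 UMIs of Itga2b. All 4 genes were detected in 92 cells, 3 of them in 99 cells and 2 in 69 cells. Near the thresholds, 20 gated cells had exactly 4 summed UMIs and 15 had 5, while 18 cells that met every other condition had 3. Likewise 67 gated cells had a single Itga2b UMI and 59 cells failed only for having none, whereas Klf1 excluded 4 cells and Igkc excluded 1.

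**Figure D1:**
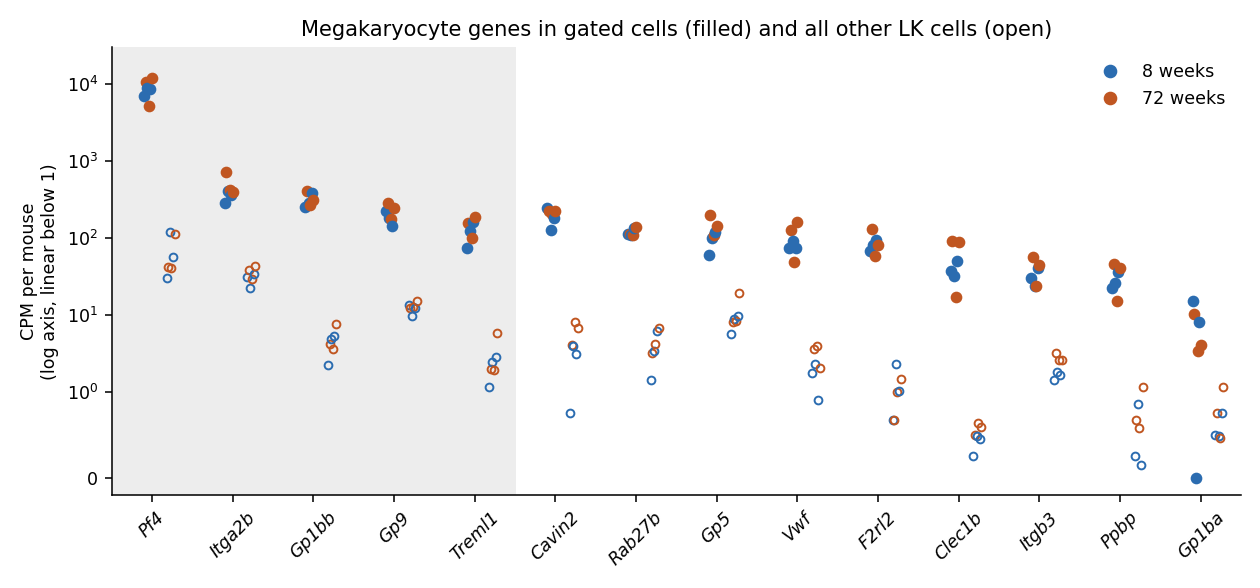
CPM of megakaryocyte genes in each of the 6 mice (vertical axis, linear near 0 and logarithmic above), with filled points for the gated cells and open points for the other LK cells. The grey band marks the genes of the rule, and outside it Cavin2 lies at 127 to 250 CPM in the gated cells and at 0.756 to 8.24 CPM in the other LK cells.

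Outside the rule, the gate carried receptors, granule proteins and signalling proteins of platelets. Cavin2 stood at 250, 226, 127, 207, 183 and 228 CPM in mice 1 to 6, against 0.756 to 8.24 CPM in other LK cells. The lowest gated value was thus far above the highest outside the gate. Gp5, which joins the von Willebrand factor receptor, stood at 60.5, 200, 101, 109, 122 and 142 CPM, with a mean of 122 ± 46.7 (SD, n = 6) against 10.1 ± 4.80. Vwf, encoding von Willebrand factor itself, stood at 75.7, 128, 91.8, 49.5, 75.6 and 163 CPM, against 2.45 ± 1.17 outside the gate. Rab27b, which serves granule release, varied least among these genes, at 110 to 138 CPM (mean 120 ± 13.3, SD, n = 6). Gp1ba, the chain that binds von Willebrand factor, had only 12 UMIs in the whole gate.

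Shares of cells with a UMI follow the same order but depend on depth. Cavin2 was detected in 63.5% of gated cells and in 2.37% of other LK cells, and after thinning every cell to 2000 UMIs in 27.9% and 1.33%. The thinned share was 0.00% in early erythroid cells and 10.3% in the stem cell gate. Gp5 showed the reverse order of these neighbours after thinning, with 22.5% of gated cells, 4.41% of early erythroid cells and 1.98% of stem gate cells. Kit RNA was found in 6.20% of thinned gated cells and 9.84% of thinned other LK cells, although both were sorted on the protein.

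Against all other LK cells, edgeR's quasi-likelihood test with the mouse as a block and Benjamini-Hochberg adjustment called 1785 of 8860 genes at an adjusted p under 0.05 (20.1%), 813 higher in the gate (9.18%) and 972 lower (11%). The gate was cut from the same RNA counts, so genes expressed together with the genes of the rule are higher in it by choice, and the counts and fold changes that follow are a description that supports no further statement. The increases named are the largest among genes of at least 50 CPM. Clec1b was at 53.4 ± 31.0 CPM (SD, n = 6) in the gate and 0.491 ± 0.137 outside it, a log2 fold change of 6.33 (SE 0.34). F2rl2 was at 86.5 ± 26.3 CPM against 1.20 ± 0.631 (log2 6.07, SE 0.25). Cavin2 differed by 5.36 on the log2 scale, Vwf by 4.98, the membrane trafficking gene Ehd3 by 4.93, Rab27b by 4.76, the RNA-binding gene Rbpms2 by 4.47, Lim2 by 4.31, Gp5 by 3.59 and the urea transporter Slc14a1 by 3.54. All of these were higher in the gate in 6 of 6 mice. The largest decreases were those of the basophil protease Mcpt8 (log2 -4.58), the monocyte and granulocyte antigen Ly6c2 (-4.45), the antibody heavy chain Ighm (-4.33), neutrophil elastase Elane (-4.22) and the basophil protease Prss34 (-4.22), each lower in the gate in every mouse.

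By role, the receptors came apart. Of 12 signalling receptors tested, 9 were higher and 3 lower, beside 9.18% and 11% of all genes tested. Their median log2 fold change was 1.74 against -0.03 over all genes tested. The thrombin receptor F2r was at 111 ± 25.5 CPM against 10.5 ± 4.12, the thromboxane receptor Tbxa2r at 45.3 ± 10.4 against 4.05 ± 1.74, and the ADP receptor P2ry1 at 28.4 ± 5.12 against 5.24 ± 1.84 (SD, n = 6). The 3 lower ones were the cytokine receptor chain Csf2rb, the chemokine receptor Cxcr4 and Kit (log2 -0.53, SE 0.19), and Kit and Cxcr4 were higher in the gate in 2 of 6 mice. Of 8 adhesion receptors, 6 were higher and 2 lower, beside 9.18% and 11% of all genes tested. Among the 6 were Itgb3 (means of 36.7 against 2.24 CPM), the tetraspanin Cd9 (756 against 87.6) and Esam (55.4 against 6.74), each higher in 6 of 6 mice. Fcer1g and Pecam1 were lower.

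Granule cargo was mostly higher. Of 12 granule and secreted proteins tested, 9 were higher and 2 lower, beside 9.18% and 11% of all genes tested. Their median log2 fold change was 3.04. Ppbp, the precursor of a platelet chemokine, was at 31.3 ± 11.7 CPM against 0.619 ± 0.383, the multimerin Mmrn1 at 44.8 ± 23.9 against 3.17 ± 2.75, and the protease inhibitor Serpine2 at 191 ± 69.4 against 17.0 ± 6.53 (SD, n = 6). The proteoglycan core Srgn (log2 -0.46) and the coagulation factor F13a1 (-3.32), which monocyte progenitors also express, were lower. Among the cytoskeleton and signal transduction genes, 17 of 27 were higher and 1 lower, beside 9.18% and 11% of all genes tested. The small GTPase Rap1b was at 852 ± 150 CPM against 118 ± 19.6 and the alpha tubulin Tuba8 at 214 ± 17.6 against 27.6 ± 4.52. The platelet enzymes of thromboxane synthesis, Ptgs1 (log2 3.04) and Tbxas1 (2.60), were higher as well.

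The transcription factors gave smaller differences than the receptors and cargo. Of 23 tested, 13 were higher and 4 lower, beside 9.18% and 11% of all genes tested. Their median log2 fold change was 0.52. Mef2c stood at 480 ± 104 CPM against 110 ± 25.3 (log2 2.03) and Fli1 at 139 ± 19.9 against 37.2 ± 4.03 (1.84). Gata1 was at 72.9 ± 16.3 CPM against 43.5 ± 6.30 (0.61) and Nfe2 at 118 ± 23.7 against 80.9 ± 6.43 (0.47). Runx1 was at 53.7 ± 8.70 CPM against 48.0 ± 5.98, a log2 difference of 0.07 (SE 0.15) with an edgeR adjusted p of 0.845. Myb was lower, at 80.9 ± 13.1 against 198 ± 44.1 CPM.

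Against the early erythroid gate, 2170 of 5270 genes were called (41.2%), 1051 higher (19.9%) and 1119 lower (21.2%). Both gates use their own genes, and the same limit on reading these counts holds. Several genes of the platelet programme were nearly undetected in erythroid cells, with 2 UMIs of Cavin2, 2 of F2rl2, 1 of Clec1b, 3 of Ehd3 and 1 of Itgb3 in all 635 cells, so no fold change is given for them. Serpine2 had 21 UMIs there, a mean of 2.43 ± 1.52 CPM against 191 ± 69.4 in the gate (log2 5.85, SE 0.25). Rbpms2, at 66.1 ± 23.2 CPM against 0.320 ± 0.495, was nearly undetected there as well and gets no fold change. Esam (6.26), Rab27b (6.19) and the chaperone Clu (6.07) were also higher in the gate. Esam and Clu were at only 0.594 and 0.768 CPM in erythroid cells, so the sizes of their differences are uncertain. The largest decreases were in the kinase Sphk1 (-5.33), the proteases Prss50 (-5.28) and Ctse (-5.23) and the Rh membrane proteins Rhag (-5.14) and Rhd (-5.12). In the gate these genes averaged 2.03 to 8.70 CPM, and Rhag had a UMI in only 3 cells, so the sizes of the decreases are uncertain.

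The factors that both lineages use differed less between these gates. Gata1 was lower in the megakaryocyte gate than in erythroid cells, at 72.9 ± 16.3 against 140 ± 24.3 CPM (log2 -0.99, SE 0.14, edgeR adjusted p 1.01e-06), and so was Gfi1b (-0.51). Tal1 differed by -0.42 (edgeR adjusted p 0.0556) and Zfpm1 by 0.32 (edgeR adjusted p 0.182). Gata2 (1.70), Fli1 (4.07), Meis1 (4.14) and Runx1 (1.49) were higher. Gp5 and Slc14a1 were at 27.0 ± 13.1 and 41.3 ± 8.92 CPM in erythroid cells, above their levels in other LK cells of 10.1 ± 4.80 and 16.6 ± 3.30.

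Against the stem cell gate, 661 of 2332 genes were called (28.3%), 296 higher (12.7%) and 365 lower (15.7%), while DESeq2 called 366, 120 higher and 246 lower. Without aged mouse 4, which holds 154 of the 259 stem gate cells, 431 were called. The stem gate was cut from the RNA of Procr, Hlf and Mecom, and the same limit on reading these counts holds. Of the genes of at least 50 CPM with the largest increase, F2rl2 had only 2 UMIs in the stem gate and gets no fold change. Slc14a1 was higher by 4.12 on the log2 scale, Serpine2 by 3.96, the sphingosine phosphate transporter gene Mfsd2b by 3.88, Tuba8 by 3.77, Gp5 by 3.33, Rab27b by 3.30, the mitotic gene Ckap2l by 2.94, Rap1b by 2.82 and Plek, a kinase substrate of platelets, by 2.74. The stem cell surface antigen Ly6a was lower by 5.04, at 6.83 ± 6.55 against 139 ± 44.4 CPM, and Myl10 (-4.85), Ltb (-4.47), Ifitm1 (-3.30) and Gstm1 (-2.90) were also lower.

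Some receptors, enzymes and transcription factors of the gate were at a similar order of magnitude in the stem gate. Esam was at 55.4 ± 33.2 CPM in the gated cells and 52.5 ± 26.9 in the stem gate (log2 -0.08, SE 0.28), Tbxas1 at 122 ± 9.82 and 92.4 ± 46.0 (0.25, SE 0.20) and Meis1 at 143 ± 42.9 and 149 ± 49.5 (-0.14, SE 0.17), none of which passed the test. Cavin2 was higher in the gate by 2.11 (SE 0.24), with 32.1 ± 20.9 CPM in the stem gate. Of 8 stem cell genes tested, 7 were lower in the gate, among them Cd34 (60.1 ± 18.7 against 324 ± 91.6 CPM), beside 15.7% of all genes tested. Of 20 listed genes of the G2 and M phases, 9 were tested. All 9 were higher, with a median log2 fold change of 1.24, beside 12.7% of all genes tested that were higher. The filter on low counts can keep a gene only through the class where it is high, so both list counts are a description.

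Within the gate, cells were also set in order by the summed Pf4, Gp1bb, Gp9 and Treml1 UMIs per 10000 and divided into a low range (2.22 to 37.9, 87 cells), a middle range (40.7 to 111.1, 86 cells) and a high range (111.3 to 326, 87 cells). The ranges are made from the rule and the values are a description without a test. Cavin2 averaged 96.9, 186 and 329 CPM over the 6 mice in the low, middle and high range. Vwf averaged 31.3, 106 and 130 CPM, Gp5 69.4, 96.5 and 179, Ppbp 6.93, 28.7 and 50.1, and F2rl2 24.5, 93.1 and 129. Each of these 5 genes was higher in the high than in the low range in 6 of 6 mice. Cd34 went the other way in every mouse, at 125, 55.4 and 11.8 CPM, and Kit, at 56.5, 42.9 and 19.2, in 5 of 6. Gata2, which acts in stem cells and early megakaryocytes, averaged 183, 150 and 157 CPM. Mouse 1 had 4, 10 and 3 cells in the 3 ranges, so that its values rest on few cells, while mouse 4 had 32, 23 and 14.

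**Figure D2:**
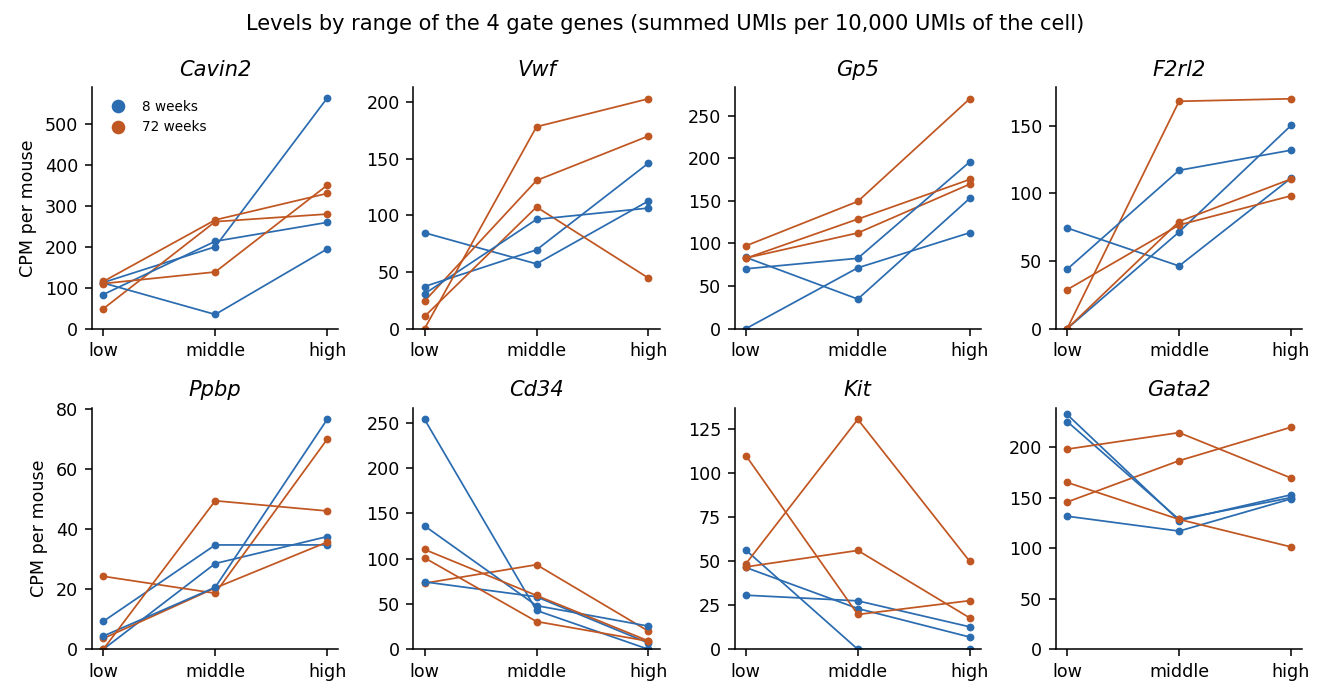
CPM of 8 genes outside the rule in the low, middle and high range of gate UMIs, with 1 line per mouse. Mean Cavin2 is 96.9 CPM in the low and 329 CPM in the high range, mean Cd34 is 125 and 11.8 CPM, and mean Gata2 lies between 150 and 183 CPM in all ranges.

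The first question put to the ages was whether megakaryocyte progenitors took a different share of LK cells. They made up 1.02% of LK cells in young mouse 1 (95% Wilson interval 0.641 to 1.63), 3.13% in young mouse 3 (2.37 to 4.13) and 6.38% in young mouse 5 (5.00 to 8.11). In the aged mice they made up 1.95% in mouse 2 (1.40 to 2.73), 3.60% in mouse 4 (2.85 to 4.53) and 4.70% in mouse 6 (3.35 to 6.56). The intervals cover counting error only. The young mice held both the lowest and the highest share, so the ages overlapped entirely. The means were 3.51 ± 2.70% and 3.42 ± 1.38% (SD, n = 3 each), a difference of -0.0957 percentage points (two-sided exact permutation test p = 1, where the smallest p for 3 against 3 is 0.1). After thinning all cells to 2000 UMIs and gating again, the means were 1.12 ± 0.856% and 1.53 ± 0.800% (exact permutation p = 0.6). The difference ran from -1.34 without young mouse 1 to 1.34 without young mouse 5. A share of sorted cells cannot tell a change in these progenitors from a change in the other LK cells.

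**Figure D3:**
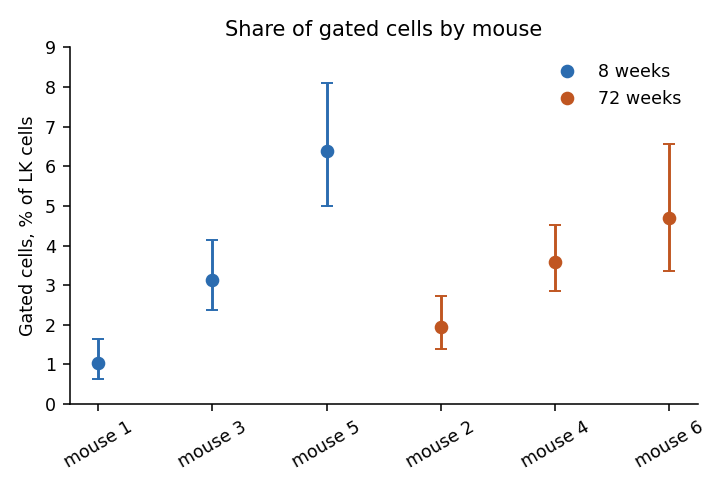
Share of LK cells in the megakaryocyte gate (vertical axis, percent) for each mouse, with 95% Wilson intervals. The 3 young mice span 1.02 to 6.38% and enclose the 3 aged mice, at 1.95 to 4.70%.

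Gene levels were then compared between ages within the gate, on UMIs summed per mouse, a comparison that the rule did not use. Of 3585 genes tested with edgeR, 2 passed an adjusted p of 0.05 (0.0558%), with Aldh1a1 higher and Plac8 lower in aged mice. Each direction thus held 0.0279% of the genes tested. Before adjustment 176 genes had p under 0.05 (4.91%), 2.48% higher and 2.43% lower. CPM of the ages did not overlap for 371 genes (10.3%), 173 of them higher with age (4.83%) and 198 lower (5.52%).

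Aldh1a1 encodes the retinaldehyde dehydrogenase that makes retinoic acid, at chr19:20492715-20643465 on the plus strand. In the gated cells it was at 7.57, 14.8 and 28.0 CPM in young mice 1, 3 and 5 and at 92.4, 76.8 and 142 CPM in aged mice 2, 4 and 6. The lowest aged value was thus well above the highest young value. The log2 fold change was 2.27 (SE 0.38, edgeR adjusted p 0.0366). These levels rest on few molecules, with 1, 5 and 17 UMIs in the young and 18, 45 and 35 in the aged mice. They were spread over cells, since a UMI was found in 1 of 17, 5 of 48 and 15 of 61 young cells and in 9 of 33, 30 of 69 and 21 of 32 aged cells, that is in 5.88, 10.4 and 24.6% and in 27.3, 43.5 and 65.6%. The call was lost when young mouse 1, 3 or 5 or aged mouse 6 was left out (adjusted p 0.0638, 0.0957, 0.0575 and 0.172), when mice 1 and 2 were both left out (0.309), and under 3 stricter choices of cells (0.121 to 0.205), with log2 fold changes of 1.96 to 2.90 in all of these.

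Aldh1a1 was also read in the neighbouring cells. Other LK cells held 7.23, 11.1 and 6.04 CPM in the young and 11.5, 22.1 and 23.1 CPM in the aged mice, again without overlap. Early erythroid cells held means of 29.4 ± 11.1 and 42.7 ± 6.70 CPM and stem gate cells 25.5 ± 26.0 and 48.3 ± 21.4 CPM (SD, n = 3 each), and in both the ages overlapped. The age effect in the gate minus that in other LK cells was 0.95 on the log2 scale (SE 0.40, edgeR adjusted p 0.862), which did not pass. In the 3 ranges of gate UMIs, the young and aged means were 10.4 and 125 CPM in the low, 13.2 and 95.6 in the middle and 21.1 and 106 in the high range. The RefSeq promoter of the second of its 2 starts holds AGATAA at -32 (chr19:20601924-20601953, plus strand), shown because this gene carried the age difference.
Aldh1a1: cttagtgcatgcAGATAAaaaggagcaagg

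Plac8, a small cysteine-rich protein of myeloid cells at chr5:100553725-100572245 on the minus strand, was at 1120, 802 and 837 CPM in young mice 1, 3 and 5 and at 354, 446 and 354 CPM in aged mice 2, 4 and 6. Here every aged value was below every young one. The log2 fold change was -1.21 (SE 0.17, edgeR adjusted p 0.0143). It was found in 82.4, 89.6 and 96.7% of young and 78.8, 68.1 and 90.6% of aged gated cells, so that it differed in level more than in detection. In young mouse 1, 1 cell held 49 of the 148 UMIs, and in aged mouse 4, 1 cell held 85 of the 261. The call was lost without young mouse 1 (adjusted p 0.0603), without aged mouse 6 (0.145), without mice 1 and 2 (0.309), and under the same 3 stricter choices of cells (0.121 to 0.278), with log2 fold changes from -1.18 to -0.84 in all of these. Without cells of mixed lineage by the rule added later, neither gene passed (2.21 with adjusted p 0.133 for Aldh1a1, -1.57 with 0.0664 for Plac8).

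Plac8 is far higher outside the gate. Other LK cells held 5264, 3859 and 4635 CPM in the young and 4278, 3250 and 2947 CPM in the aged mice, which overlapped. Stem gate cells held 2928, 1940 and 2393 CPM against 1107, 589 and 1330, without overlap. These values rest on 13, 17 and 12 young cells and on 39, 154 and 24 aged cells. The age effect in the gate was lower than that in other LK cells by 0.75 on the log2 scale (SE 0.14, edgeR adjusted p 0.000161), although DESeq2 did not call it and the call was lost without aged mouse 2 (-0.54, adjusted p 0.315). Within the gate the level was lower in the ranges with more gate UMIs, and the young and aged means were 1584 and 649 CPM in the low, 935 and 312 in the middle and 266 and 173 in the high range. The ages did not overlap in the low and middle ranges. They overlapped in the high range, at 225, 285 and 289 CPM in young and 190, 53.5 and 276 CPM in aged mice. The granulocyte markers moved alongside, since their summed level in the gated cells was 1143 to 1286 CPM in young and 806 to 970 CPM in aged mice. None of the 5 granulocyte markers tested passed, all 5 had a fitted change below 0 (median -0.33), and their part in the Plac8 result was not tested. Other lineage lists moved with age in the same cells. The 5 monocyte markers summed to 219, 65.1 and 29.6 CPM in young mice 1, 3 and 5 and to 15.4, 8.54 and 4.07 CPM in aged mice 2, 4 and 6, without overlap, and too low for any of them to be tested singly. The 7 stem markers summed to 136, 112 and 102 CPM in young and to 298, 135 and 236 CPM in aged mice, with overlap. The part of these lists in the Aldh1a1 and Plac8 results was not tested.

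**Figure D4:**
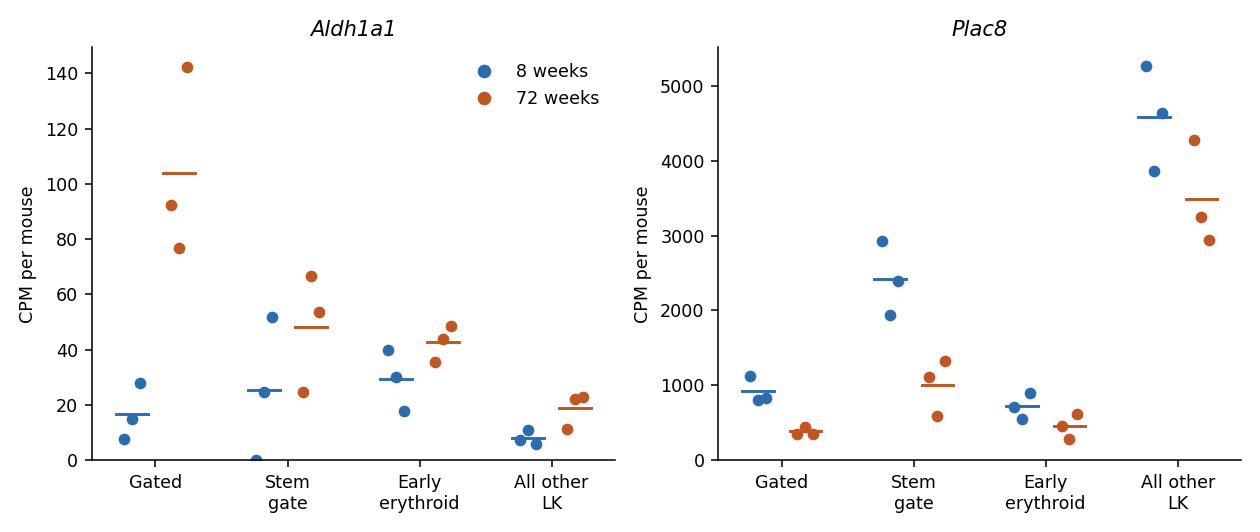
CPM of Aldh1a1 and Plac8 in the 3 young and 3 aged mice, for the megakaryocyte gate, the stem cell gate, the early erythroid gate and the other LK cells, with points for mice and bars for means. In the gate the ages do not overlap for either gene, at 7.57 to 28.0 against 76.8 to 142 CPM for Aldh1a1 and 802 to 1120 against 354 to 446 CPM for Plac8.

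The genes next in order of p did not pass, with adjusted p from 0.227 upward. On the higher side in aged mice stood the ribosomal RNA-related transcript Gm42418 (means of 113 in young against 240 CPM in aged mice), Gm9616 (131 against 231), the chromatin remodeller Atrx (47.3 against 104), Def8 (18.7 against 55.4), which overlaps Gm20388, and AC149090.1 (66.8 against 135), then Cela1, Cpne2, Nudcd3 and Selenom. On the lower side stood the granule enzyme Mpo (443 ± 66.1 against 250 ± 15.7 CPM, SD, n = 3 each), Lgals1 (241 ± 171 against 62.8 ± 12.6), the histone gene Hist1h2ap (1910 ± 1186 against 561 ± 216), the mitotic ubiquitin enzyme Ube2c (317 ± 121 against 141 ± 30.7), the tubulin Tubb5 (1200 ± 113 against 728 ± 124) and the mitotic gene Birc5 (260 ± 82.6 against 148 ± 5.85), with 0610010K14Rik, Tmsb10 and Serpina3g. Lgals1 passed in DESeq2 (adjusted p 0.0134) and with a term for mice 1 and 2 in edgeR (0.0407). Of its UMIs, 1 cell held 28 of 58, 18 of 47 and 18 of 89 in young mice 1, 3 and 5. In aged mice 2, 4 and 6, 1 cell held 2 of 11, 8 of 32 and 7 of 19.

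The platelet programme gave no age call. Of the 9 tested megakaryocyte markers outside the rule, 0 passed, 7 had a fitted change above 0 and the median was 0.32, beside 0.01 over all genes tested. Cavin2 was at 186 ± 61.3 CPM in young and 220 ± 11.6 in aged mice (log2 0.32, SE 0.20), Vwf at 81.0 ± 9.30 and 113 ± 58.0 (0.35, SE 0.36), Gp5 at 94.3 ± 31.1 and 151 ± 46.0 (0.49, SE 0.25) and Rab27b at 120 ± 14.5 and 121 ± 15.2 (-0.01, SE 0.21; SD, n = 3 each). The ages of these 4 genes overlapped. All 4 had edgeR adjusted p of 0.963 or more.

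Lists by role were read against the same background. Among 6 signalling receptors none passed and the median was 0.31. Kit, at 15.1, 23.7 and 23.0 CPM in young and 71.9, 44.4 and 36.6 CPM in aged mice, had the largest change there (log2 1.14, SE 0.36, edgeR adjusted p 0.753). Among 6 adhesion receptors, with a median of 0.35, Esam stood at 45.4, 26.6 and 29.6 against 56.5, 56.4 and 118 CPM (1.27, adjusted p 0.627) and Fcer1g at 106, 124 and 115 against 41.1, 87.1 and 32.5 (-0.91, adjusted p 0.756). These 3 genes did not overlap between ages and did not pass. Of 10 granule and secreted proteins none passed, with a median of 0.22, and Clu (32.1 ± 9.21 against 70.8 ± 26.1 CPM) and Mmrn1 (29.9 ± 15.3 against 59.7 ± 23.2) overlapped. Of 19 transcription factors none passed and the median was 0.25. Of these, 4 were higher without overlap, among them Mef2c, Nfe2 and Etv6, and Ldb1 was lower without overlap, 5 of 19 genes beside 10.3% of all genes tested.

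A list of genes described as higher in aged stem cells, written from general knowledge with earlier results of these data known, had 12 of 28 members tested in the gate. Of these 1 passed (Aldh1a1), beside 0.0279% of all genes tested that passed as higher. All 12 had a fitted change above 0, with a median of 0.41 beside 0.01 over all genes tested. Vwf, Clu, Cavin2 and Itgb3 are in this list and also in the platelet lists. The immediate early genes on it varied within an age, with Jun at 455 ± 52.3 against 563 ± 378 CPM and Fos at 249 ± 91.1 against 308 ± 378. Of 4 retinoid metabolism genes tested, Aldh1a1 passed, which is the same call, and 3 did not. Among the 3 were Dhrs3 (48.0 ± 5.43 against 73.5 ± 22.2 CPM) and Rxrb (37.1 ± 13.7 against 44.9 ± 21.6).

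The cell cycle lists pointed apart. None of 17 genes of the G2 and M phases passed, and 16 of 17 had a fitted change below 0, with a median of -0.65. CPM of the ages did not overlap for 2 of the 17, Ube2c and Birc5, a share near the 10.3% of all genes tested. Ube2c was at 431, 189 and 329 CPM in young and 159, 159 and 106 CPM in aged mice (log2 -1.07, SE 0.24, adjusted p 0.227), and Cdk1 at 242, 139 and 225 against 113, 149 and 97.6 CPM (-0.65, SE 0.22). Summed over the list, the level was 3791, 2232 and 3744 CPM in young and 2648, 2287 and 1817 CPM in aged mice, so that young mouse 3 lay among the aged mice. None of 16 S phase genes passed, and their median was 0.17.

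Shares of cells gave a weaker contrast than levels. Gated cells with at least 2 UMIs over the G2 and M phase list, after thinning to 2000 UMIs, made up 70.6, 58.3 and 78.7% in young and 78.1, 55.1 and 64.5% in aged mice (means 69.2 ± 10.2 and 65.9 ± 11.6%, SD, n = 3 each, exact permutation p = 0.7). For the S phase list they made up 83.3 ± 4.76 and 86.6 ± 9.77% (exact permutation p = 0.7). Without thinning the G2 and M phase shares were 90.1 ± 5.88 and 91.5 ± 5.07%, and the S phase shares 97.9 ± 3.61 and 100%. Unthinned shares this near 100% leave little room for an age difference. A cell can count in both lists, so the shares do not assign cells to a phase. For comparison, the thinned G2 and M phase shares were 87.3 and 88.0% in early erythroid cells, 34.1 and 31.8% in stem gate cells and 67.9 and 63.2% in other LK cells, for young and aged mice.

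**Figure D5:**
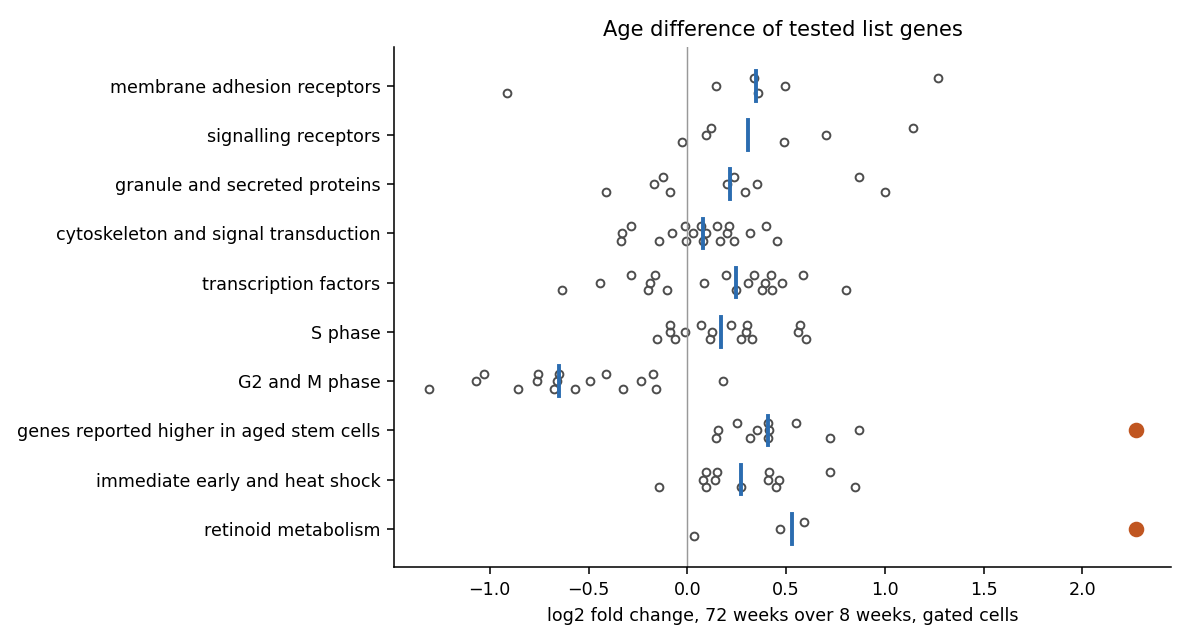
Log2 fold change of aged over young mice in the gated cells (horizontal axis) for every tested gene of 10 lists, with blue bars for list medians and filled points for genes past the test. The G2 and M phase genes centre on a median of -0.65, the other medians lie between 0.08 and 0.53, and the filled point is Aldh1a1, which belongs to 2 lists.

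The difference between the age effect in the gate and that in other LK cells was tested as an interaction. It passed for 16 of 9909 genes (0.161%), 4 with a higher (0.0404%) and 12 with a lower effect in the gate (0.121%), and 485 had p under 0.05 before adjustment (4.89%, 2.57% higher and 2.32% lower). DESeq2 called 0, with 140 under 0.05 before adjustment. Without aged mouse 2 there were 8 calls and without aged mouse 6 there were 25. Besides Plac8, the granule enzyme Mpo had a lower effect in the gate by 0.91 on the log2 scale (SE 0.16, edgeR adjusted p 1.38e-05), at 507, 447 and 375 CPM in young and 267, 248 and 236 CPM in aged gated cells, while the means in other LK cells were 3230 and 3532 CPM. The call for Mpo was lost without mouse 2 (-0.66, adjusted p 0.189) or mouse 3 (-0.58, adjusted p 0.578). Its gated levels rest in part on single cells. In young mice 1, 3 and 5, 1 cell held 33 of 67, 48 of 151 and 66 of 228 Mpo UMIs. In aged mice 2, 4 and 6, 1 cell held 5 of 52, 83 of 145 and 21 of 58. The protease inhibitor gene Serpina3g, at 295, 290 and 375 against 241, 167 and 207 CPM in the gate and means of 58.8 and 62.9 outside it, differed by -0.78 (SE 0.19, adjusted p 0.0259), a call lost without mouse 3, 4 or 5 (-0.76, -0.62 and -0.74, adjusted p 0.234 to 0.711). In the gate itself neither Mpo nor Serpina3g passed.

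All 133 UMIs of Cd74 and all 46 of H2-Aa, both of antigen presentation, in the gated cells of young mouse 1 came from 1 cell, where they set the young mean. Cd69 and Dusp2, early response genes, were high in aged mouse 4 alone, with 122 and 110 UMIs against at most 28 and 24 in any other mouse. Without mouse 4 the difference for Cd69 went from 1.23 to -0.84. The antibody gene Ighm had means of 65.4 and 144 CPM in young and aged gated cells and of 438 and 3880 CPM in young and aged other LK cells, with mouse 2 highest in both, at 370 and 9883 CPM. Iglc1 had means of 14.7 and 41.6 CPM in the gate and of 14.3 and 185 CPM outside it, again highest in mouse 2.

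The transcript models that the study built from its long reads were looked up for the gate genes. Of models that carried a status, Cavin2, Gp9, Gp5, Treml1 and F2rl2 each had 1 known model and Gp1bb and Itga2b had 2 each. Pf4, Vwf and Clec1b had models without a status only. These models describe all LK cells together and not the gated cells.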

How the data were processed

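LK cells of 6 mice with 1 short-read library each were used. The authors made the deposited counts (UMIs per gene and cell, not normalized) with Cell Ranger 3.0.2 and Seurat 3 on mm10, and kept cells by genes detected and mitochondrial share. Each cell was tied to its mouse by the number at the end of the cell name, which matches the mouse number in the labels. The table held 0 columns of other series. The deposited long-read counts per gene were not used, and the deposited annotation gave transcript models only. Whether counting used the strand was not given in the sources used here.

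UMIs of the cells of a class were summed per mouse and tested with edgeR 4.0.16 (R 4.3.3, filterByExpr, TMM scaling, quasi-likelihood F test, Benjamini-Hochberg adjustment over all genes tested). Contrasts between classes had the mouse as a block, because both sums come from the same animal, and left out the genes of the gates. Fold changes of the age comparison are aged over young. CPM were computed from the UMIs of all genes. Shares were compared over mice with two-sided exact permutation tests (scipy 1.17.1). For shares of cells, each cell was thinned to 2000 UMIs with a fixed seed, and shallower cells were left out (2 gated cells). The code was tested on simulated data first. DESeq2 1.42.0, no filter on low counts, stricter gates, no deep cells, a term for mice 1 and 2, no immunoglobulin genes and leaving out each mouse were tried as alternatives. Leaving out mixed-lineage cells by a narrower rule, leaving out mice 1 and 2 and the DESeq2 fit with their term were chosen after seeing the data.

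The gated cells and the gene lists were chosen with earlier results of these data known. Named genes are every called gene of the age comparison, filled up to 10 in each direction by unadjusted p at a mean of at least 10 CPM, and for the other comparisons the 10 largest increases and 5 largest decreases among called genes of at least 50 CPM, with the markers and list members beside them. Of 307 list genes, 292 were in the table. Some list members are not reported here.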

Additional observations from a re-analysis of the deposited data

Results flagged for a closer look

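The age effect in the megakaryocyte gate differed from that in other LK cells for 16 genes by the edgeR interaction test, of which the 11 that met the rule for named genes are given here, and each value is the log2 effect in the gate minus that outside it. DESeq2 called none of them. The difference was 1.44 for Dusp2 (adjusted p 0.00108) and 1.23 for Cd69 (0.0119), and in both the gated cells of aged mouse 4 were highest, with the UMIs spread over 36 and 25 cells. Both calls were lost without mouse 3, 4 or 5, with Dusp2 then at 1.41, 0.96 and 1.36 and Cd69 at 1.30, -0.84 and 0.79. It was -5.88 for Cd74 (1.1e-52), -3.59 for H2-Aa (6.33e-13) and -2.55 for Irf8 (0.00135). Without young mouse 1 these 3 did not pass, and Cd74 was then at -3.32, H2-Aa at -0.17 and Irf8 at -2.19.

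Among antibody genes it was -2.42 for Iglc1 (0.000285), lost without mouse 2 (-2.33) or mouse 5 (-2.34), and -2.39 for Ighm (3.13e-10), which passed whichever single mouse was left out. Mice 1, 2 and 4 held the highest Ighm levels outside the gate, at 1178, 9883 and 1317 CPM. It was -0.75 for Plac8 (0.000161), -0.91 for Mpo (1.38e-05) and -0.999 for Lgals1 (0.0159), which were lower in the gate than outside it, and -0.78 for Serpina3g (0.0259), which was higher in the gate. Plac8 was lost without mouse 2 (-0.54), Mpo without mouse 2 (-0.66) or 3 (-0.58), Lgals1 without mouse 1 (-0.75), 2 (-0.83), 3 (-1.04) or 4 (-1.07), and Serpina3g without mouse 3 (-0.76), 4 (-0.62) or 5 (-0.74). Without mixed-lineage cells, Iglc1, Plac8, Mpo and Serpina3g passed, 6 of the 11 kept their direction and did not pass, and H2-Aa changed direction (0.16).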

How the results depend on the processing

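The age comparison called 2 genes, and 3 with DESeq2, with the term for mice 1 and 2 and with that term in DESeq2, 2 without immunoglobulin genes, 27 with no filter on low counts, 1 with at least 2 UMIs of Itga2b, and 0 with at least 10 summed UMIs and 3 of 4 genes detected, without deep cells, without mixed-lineage cells and without mice 1 and 2 (143, 124, 104 and 230 genes had p under 0.05 before adjustment in edgeR). Leaving out each mouse gave 0 to 3, with 0 without mouse 1 or mouse 6. Against the stem gate DESeq2 called 366 and no filter 1122, and leaving out each mouse gave 431 to 729. The interaction called 0 genes with DESeq2 (140 before adjustment), 5 without mixed-lineage cells and 8 to 25 without each mouse. H2-Aa then went to 0.16 without mixed-lineage cells, and Cd69 ranged from -0.84 to 1.51 without each mouse. The cause of these changes was not tested.

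With no replicate block, 1326 genes were called against other LK cells, 1866 against early erythroid cells and 456 against the stem gate, each within 1.5 times the paired count. No paired analysis was possible for the age comparison because young (1, 3, 5) and aged (2, 4, 6) mice share no numbers. The share difference ran from -1.34 to 1.34 percentage points without each mouse. For thinned gated cells with at least 2 UMIs of the S phase list it ran from -1.88 to 7.84. For those with at least 2 UMIs of the G2 and M phase list it ran from -9.41 to 2.12. The planned removal of cells with 3 UMIs of any other lineage was not run, since it left 0 cells in mice 1 and 2. Mouse 1, with 17 gated cells, limits what low genes can show.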
